A study of Homo sapiens and Homo sapiens
Mus musculus and Mus musculus with 9 samples.

Results

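The mitochondrial carriers described here are 55 protein-coding human genes, chosen by symbol alone from a table of 41713 genes, of which 19939 are protein-coding. They comprise 48 genes named SLC25A with a number, the uncoupling proteins UCP1, UCP2 and UCP3, the carrier homologs MTCH1 and MTCH2, and the pyruvate carrier subunits MPC1 and MPC2. RNA-Seq was performed on 3 cultures of C4-2B, a prostate cancer line of human origin, and on 3 mixed cultures in which 1 part of C4-2B was grown with 30 parts of the mouse osteoblast line MC3T3-E1. All were labelled wild type and kept in the same serum-supplemented medium, and RNA was taken from the whole mixture, so that the co-culture libraries held transcripts of both species. The table gives the human genes only. Libraries of pure MC3T3-E1 (3) entered no value below. No label says how the 3 libraries of a group were grown apart, so their spread may be technical.

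For each gene and each of 3 pipelines (Xenome, XenofilteR and Kallisto), the value used here is the authors' mean normalised count. It is the count of each of 6 libraries divided by that library's size factor and averaged over C4-2B alone and the co-culture together. Gene counts of Kallisto are estimates, not whole reads. The counts of single libraries were not used as such, and the authors' comparison of the cultures was left out, so no test of co-culture against C4-2B alone was made. A mean of all 6 libraries has no error of its own here, and for the members above a mean of 100 the spread between libraries is unknown. For low genes the Xenome and XenofilteR means could be resolved into whole reads of each library.

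These carriers sit in the inner mitochondrial membrane and pass nucleotides, phosphate, keto acids, amino acids, cofactors and ions between the cytosol and the matrix. Most are built from 3 tandem repeats, each of which carries a short signature beginning with proline, and a few relatives lie in the outer membrane. The ADP/ATP carriers export the ATP made by oxidative phosphorylation, the phosphate carrier brings in phosphate for its synthesis, and the uncoupling proteins are relatives of which UCP1 dissipates the proton gradient in brown fat. MPC1 and MPC2 form the pyruvate carrier and belong to another protein family.

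The signature was read in the coding sequence of SLC25A5, the member with the highest level per kilobase of transcript. The 3 copies, with capitals on the codons for proline, for the acidic residue and for the basic residue, are given below 5′ to 3′ on the sense strand (GRCh38, GENCODE release 44, plus strand). They lie in exons 1, 2 and 3 at chrX:119468597-119468614, chrX:119469946-119469963 and chrX:119470462-119470479.
SLC25A5 repeat 1: CCCatcGAGcgggtcAAG
SLC25A5 repeat 2: CCTcttGATtttgccCGT
SLC25A5 repeat 3: CCAtttGACactgttCGC

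Counted over the canonical protein of each member, the signature (proline, any residue, an acidic residue, any 2 residues, a basic residue) occurred 3 times in 30 members, 4 times in 3, 2 times in 9 and once in 5. It did not occur in 8 members, which were MPC1, MPC2, MTCH1, MTCH2, SLC25A46, SLC25A51, SLC25A52 and SLC25A53. The proteins ranged from 109 residues (MPC1) to 678 (SLC25A12), with a median of 311, and 45 of 55 had between 280 and 380 residues.

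Before levels were compared, the label of the cells was checked against markers. Of 8 prostate markers, 7 had a row, and their Xenome means ran from 4603 (TMPRSS2) to 51038 (KLK3). KLK2 was not analysed here. Of 10 osteoblast markers, 6 were under a mean of 10, while COL1A1 stood at 3384, RUNX2 at 411, SPARC at 72.0 and COL1A2 at 44.96. The pipelines differed for these genes, and not in 1 direction. COL1A2 had 264 with XenofilteR and 222 with Kallisto, whereas COL1A1 had 4557 with XenofilteR and 2471 with Kallisto. Their part in the values below was not tested. The size factors solved from the Xenome means were 5.93, 5.31 and 4.86 for 3 libraries and 0.427, 0.145 and 0.109 for the others. They correspond to about 251, 225, 206, 18.1, 6.14 and 4.61 M human counts (size factor times the summed mean counts). These libraries were not matched to a culture, since the labels do not tie a size factor to a sample. They are called libraries 1 to 6 in order of size factor.

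Most of the carriers were expressed. Every one of the 55 members had a value in all 3 pipelines, and 49 (89.1%) had a Xenome mean of at least 10, which 74.9% of the 17827 protein-coding genes with a Xenome value reached. The mean was at least 1000 for 30 members, between 100 and 1000 for 14 and between 10 and 100 for 5. The median member had a mean of 1198 against 517 for the median protein-coding gene. Per kilobase of the canonical transcript, the unit used wherever levels of different genes are compared, the median member (SLC25A28, 554 per kilobase) lay at percentile 70.9 of the 17784 protein-coding genes with a length and a value, whose median was 153. The members together held 0.400% of all mean counts with Xenome, 0.404% with XenofilteR and 0.395% with Kallisto.

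**Figure D1:**
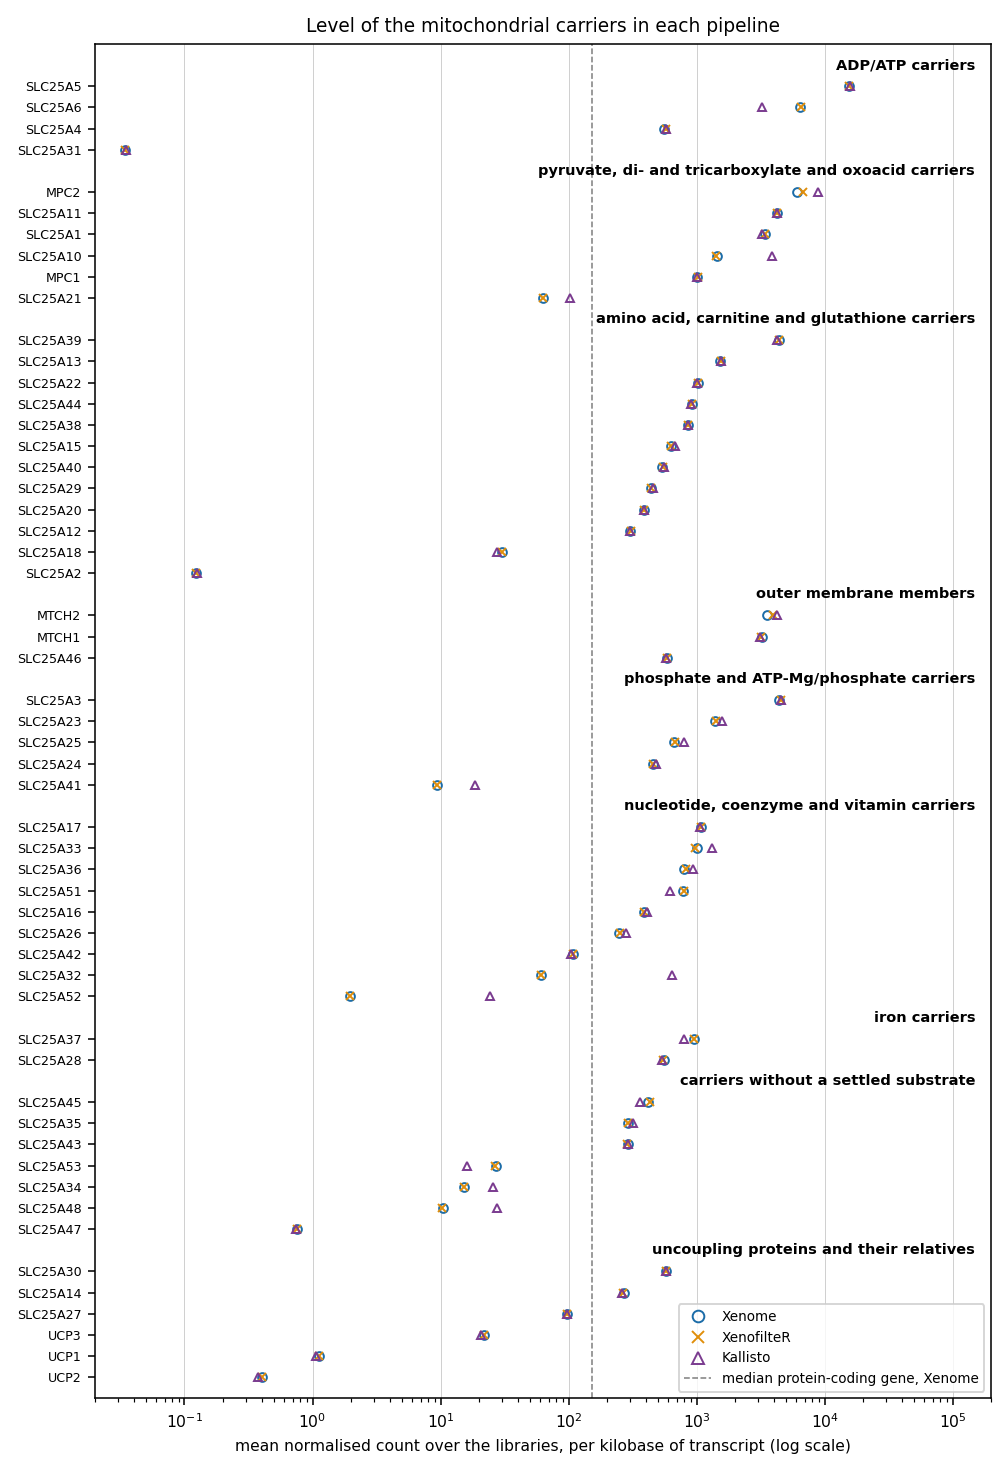
Mean normalised count per kilobase of transcript (horizontal axis, log scale) of the members, grouped by what they carry, with one symbol for each pipeline. Each point is a mean over 6 libraries of both cultures, and the dashed line is the median protein-coding gene in Xenome (153 per kilobase). SLC25A5 stands highest at 15455 and SLC25A31 lowest at 0.0346 with Xenome, and the Kallisto triangles of SLC25A32 and SLC25A52 lie far to the right of their other symbols.

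Means quoted below for single genes are not divided by length, and each order is given per kilobase of transcript unless another length is named. A few members held most of the family's signal. SLC25A5 alone had 21.2% of the summed means per kilobase, the 3 highest members 38.5% and the 10 highest 72.5%. Per kilobase of coding sequence, the 10 highest held 69.2% and MPC2 took the first place with 18.5%. That unit divides the same mean, reads of untranslated ends included, by the coding length alone. Members with long untranslated ends therefore stand higher on it. In order of the Xenome mean per kilobase of transcript, the leading 10 were SLC25A5, SLC25A6, MPC2, SLC25A39, SLC25A3, SLC25A11, MTCH2, SLC25A1, MTCH1 and SLC25A13. SLC25A39, SLC25A3 and SLC25A11 were nearly level at 4383, 4366 and 4262, and with no spread for these means their order cannot be called. The order also changed with the pipeline. With XenofilteR MPC2 (6778) stood above SLC25A6 (6493), and SLC25A3 (4581) above SLC25A39 (4380). With Kallisto SLC25A6 came 9th (3227) and MPC2 2nd (8900), and SLC25A10 took the 7th place (3849) while SLC25A13 came 12th (1551). The Xenome, XenofilteR and Kallisto means were 13569, 15067 and 19785 for MPC2 and 6929, 6924 and 6695 for SLC25A39. They were 7211, 7178 and 7163 for SLC25A11, 5291, 5292 and 5024 for SLC25A1, and 4765, 4866 and 4871 for SLC25A13. With Xenome, 9 of the members reached the 90th percentile of protein-coding genes.

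The ADP/ATP carriers made up 30.9% of the family's signal per kilobase with Xenome. They exchange cytosolic ADP for matrix ATP. SLC25A5, the isoform linked to dividing cells, had a Xenome mean of 20199, SLC25A6 one of 9392, and SLC25A4, the isoform of heart and muscle, one of 2459. SLC25A31, an isoform of the male germ line, had 0.0627, which is 2 reads of library 2 and 0 in the other libraries. Per kilobase of transcript SLC25A5 exceeded SLC25A4 27.8 times, but the SLC25A4 transcript is 4415 bases long against 1307, and per kilobase of coding sequence the ratio was 8.22. SLC25A5 exceeded SLC25A6 2.39 times per kilobase of transcript with Xenome and 4.93 times with Kallisto.

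The proteins of this set are close. SLC25A5 and SLC25A6 were identical at 91.9% of residues, SLC25A4 and SLC25A5 at 88.9%, and SLC25A31 and SLC25A5 at 70.8%. All 4 hold the run of 3 arginines and 3 methionines by which ADP/ATP carriers are known, at residues 235 to 240 in the first 3 and 247 to 252 in SLC25A31. The 48 coding bases around it are shown because they differ between the genes while the run is kept, with the codons of the run in capitals. They lie at chr4:185145836-185145883 (plus strand) for SLC25A4, chrX:119470450-119470497 (plus) for SLC25A5, chrX:1387295-1387342 (minus) for SLC25A6 and chr4:127768830-127768877 (plus) for SLC25A31.
SLC25A4: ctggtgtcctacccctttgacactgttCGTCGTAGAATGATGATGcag
SLC25A5: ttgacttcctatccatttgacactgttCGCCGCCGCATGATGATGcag
SLC25A6: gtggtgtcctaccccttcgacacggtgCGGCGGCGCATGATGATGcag
SLC25A31: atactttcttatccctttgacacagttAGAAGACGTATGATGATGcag

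Against SLC25A5, these 48 bases differed at 10 positions in SLC25A4, at 11 in SLC25A6 and at 12 in SLC25A31. Within the 18 bases of the run itself the differences were 4, 2 and 5. A 50-base read that spans them therefore differs from SLC25A5 in each of the others.

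Of the phosphate and ATP-Mg/phosphate carriers, SLC25A3 had the highest mean of any member before division by length. SLC25A3 is the carrier of phosphate and also of copper, and its Xenome, XenofilteR and Kallisto means were 26123, 27410 and 27150. Its canonical transcript is 5984 bases long for 1086 coding bases, so that it ranked 5th per kilobase of transcript and 2nd per kilobase of coding sequence. The calcium-regulated ATP-Mg/phosphate carriers adjust the adenine nucleotide pool of the matrix. Among them SLC25A23 led with a mean of 4877, which was 55.3% of the set per kilobase. SLC25A25 held 26.3% (mean 2286) and SLC25A24 18.03% (mean 1939). SLC25A41, a relative without the calcium-binding part, held 0.368% (mean 14.3).

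With Xenome, the carriers of pyruvate, di- and tricarboxylates and oxoacids formed the second largest group per kilobase of transcript, with 22.4% of the signal. All 6 members were above a mean of 10. Per kilobase of coding sequence the group came first with 28.7%, against 18.7% for the ADP/ATP carriers. With Kallisto it came first per kilobase of transcript as well, with MPC2 at 8900, SLC25A10 at 3849 and the ADP/ATP carrier SLC25A6 at 3227. With Xenome the same genes stood at 6104, 1434 and 6473. SLC25A10 and SLC25A6 are among the members called different between these pipelines below. MPC2 had a mean of 13569 and MPC1 914, although both are subunits of 1 complex. The ratio of MPC2 to MPC1 was 6.04 per kilobase of transcript and 12.8 per kilobase of coding sequence with Xenome, and 8.88 per kilobase of transcript with Kallisto. SLC25A11, the oxoglutarate carrier of the malate-aspartate shuttle, stood at 7211. SLC25A1, which exports citrate for lipid synthesis, stood at 5291. The dicarboxylate carrier SLC25A10 had 2785 with Xenome and 7474 with Kallisto, and the oxoadipate carrier SLC25A21 was lowest with 244.

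Among the 12 carriers of amino acids, carnitine and glutathione, 11 were above a mean of 10. SLC25A39 led with 6929, and its paralog SLC25A40 had 2184. The ratio was 8.14 per kilobase of transcript and 2.99 per kilobase of coding sequence, and both carry glutathione. Of the aspartate/glutamate carriers, which complete the malate-aspartate shuttle, SLC25A13 had 4765 and SLC25A12 1198, a ratio of 4.98 per kilobase of transcript and 3.995 per kilobase of coding sequence. Of the glutamate carriers, SLC25A22 had 2684 and SLC25A18 66.0, a ratio of 33.7. Of the ornithine carriers, SLC25A15 had 2432 and its intronless paralog SLC25A2 had 0.175, although their proteins are identical at 87.4% of residues. The others were SLC25A44 (branched-chain amino acids) at 3207, SLC25A38 (glycine) at 1814, SLC25A29 (basic amino acids) at 1012 and SLC25A20 (carnitine and acylcarnitine) at 690.

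The nucleotide, coenzyme and vitamin carriers contributed 7.10% of the signal. The pyrimidine nucleotide carriers SLC25A36 and SLC25A33 had means of 4573 and 3879, and their order turned with the length used, SLC25A33 being higher per kilobase of transcript (1004 against 803) and lower per kilobase of coding sequence (4015 against 4886). SLC25A16, linked to coenzyme A transport, had 2554, and SLC25A17, the peroxisomal carrier of the family, 2393. The S-adenosylmethionine carrier SLC25A26 had 506 and the coenzyme A carrier SLC25A42 356. SLC25A51, the NAD carrier, had 924, and its near copy SLC25A52 had 2.52. The 2 iron carriers were both present, SLC25A37 with 4473 and SLC25A28 with 846. SLC25A37 held 63.3% of the pair per kilobase of transcript and 85.1% per kilobase of coding sequence.

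Of the outer membrane members, MTCH2, an insertase of that membrane, had a mean of 9021, MTCH1 6358 and SLC25A46, a factor of mitochondrial shape, 2769. MTCH1 and MTCH2 were close per kilobase of transcript (3252 and 3577) but not per kilobase of coding sequence (5434 and 9891, a ratio of 1.82). The 7 carriers without a settled substrate were low as a group, with a median mean of 168 and 1.45% of the signal. SLC25A45 (949), SLC25A35 (566) and SLC25A43 (724) were the highest of them, then SLC25A53 (168), SLC25A34 (47.5), SLC25A48 (18.03) and SLC25A47 (1.35).

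The uncoupling proteins were the group with the smallest share per kilobase of transcript, 1.33%. Per kilobase of coding sequence they held 1.68%, and the carriers without a settled substrate less, 1.40%. Their relatives of the brain and other tissues accounted for nearly all of it, SLC25A30 with a mean of 2120, SLC25A14 with 436 and SLC25A27 with 286. UCP3, the form of skeletal muscle, had 49.9, UCP1 1.81 and UCP2 0.665. UCP2, which is found in many tissues, was thus among the 5 members that no pipeline put above a mean of 10. The others were SLC25A2, SLC25A31, SLC25A47 and UCP1. XenofilteR and Kallisto gave 0.664 and 0.621 for UCP2, 1.81 and 1.74 for UCP1, and 1.35 and 1.32 for SLC25A47. For SLC25A2 they gave 0.175 and 0.177, and for SLC25A31 0.0627 and 0.0635. Genes of fat cells listed beside UCP1 were low as well with Xenome, with CIDEA at 0.456, ELOVL3 at 3.03 and ADIPOQ at 0.0627, while the coactivator PPARGC1A had 138. ADIPOQ had 67.2 with Kallisto.

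**Figure D2:**
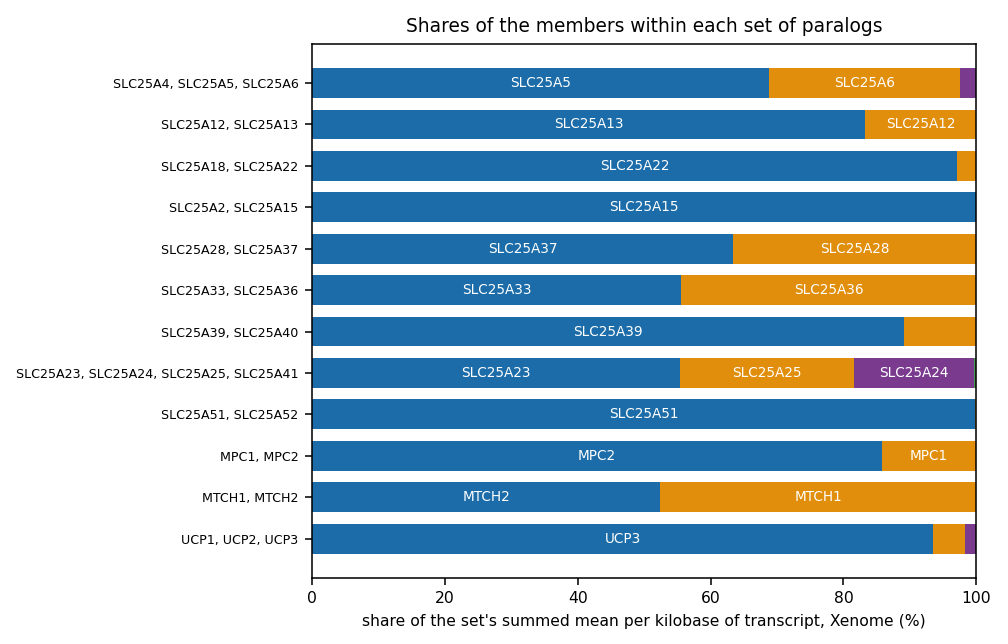
Share of each member in the summed mean per kilobase of transcript of its set of paralogs (horizontal axis, percent, Xenome), with the members of a set stacked from the highest to the lowest. In 6 of the 12 sets the leading member holds over 85% of the set, up to 99.98% for SLC25A15 against SLC25A2, while MTCH1 and MTCH2 (47.6% and 52.4%) and SLC25A33 and SLC25A36 (55.6% and 44.4%) are nearly balanced on this length. Per kilobase of coding sequence MTCH1 and MTCH2 hold 35.5% and 64.5%.

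For the 11 members with a Xenome mean under 100, the mean of 6 libraries had exactly 1 solution in whole reads. This gives their level library by library. UCP2 had 7, 4 and 10 reads in libraries 1, 2 and 3 and 0 reads in libraries 4, 5 and 6. UCP1 had 4, 3 and 2 reads in libraries 1 to 3, 0 in libraries 4 and 5, and 1 in library 6. That single read, in the library with the smallest size factor, adds 1.53 to the UCP1 mean of 1.81. The UCP1 mean therefore rests mostly on 1 read of 10, and is 0.330 without library 6. The UCP2 mean is 0.387 without library 3.

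SLC25A47, a carrier described in liver, had 13, 15 and 15 reads in libraries 1 to 3 and none in libraries 4 to 6. SLC25A2 had 4 and 2 reads in libraries 1 and 2 and none elsewhere, so that its mean of 0.175 is 0.0753 without library 1. For these members the shallow libraries gave no measure of their own, since 3 reads, the number that a count of 0 allows, amount to a normalised count of 27.6 in library 6, 20.7 in library 5 and 7.03 in library 4. A zero there is not evidence that the gene was silent, and intervals and floors of this kind cover counting error only.

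UCP3 was seen in every library, with 272, 275, 287, 9, 7 and 8 reads in libraries 1 to 6. Divided by the size factors these are 45.9, 51.7, 59.0, 21.1, 48.3 and 73.5, so that the highest and the lowest value both fell in shallow libraries and the deep libraries lay between. SLC25A18 had 336, 450, 396, 18, 7 and 9 reads, or 56.7, 84.7, 81.5, 42.2, 48.3 and 82.7 after division. The values of deep and shallow libraries overlapped for both genes.

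SLC25A34 had 372, 365, 394, 21, 2 and 1 reads, which are 62.8, 68.7, 81.0, 49.2, 13.8 and 9.18 after division. Its 3 lowest values were those of the shallow libraries, and 2 of them rest on 2 reads and on 1 read. SLC25A48 went the other way in part. Its 65, 68, 50, 11, 7 and 0 reads correspond to 11.0, 12.8, 10.3, 25.8, 48.3 and 0. The deep libraries lay close together, whereas the shallow ones held both the highest values and the lowest. SLC25A41 had 97, 105, 62, 5, 1 and 2 reads, or 16.4, 19.8, 12.8, 11.7, 6.91 and 18.4 after division. Whether any of this spread belongs to the cultures, to depth or to the reads of mouse RNA cannot be told apart here.

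**Figure D3:**
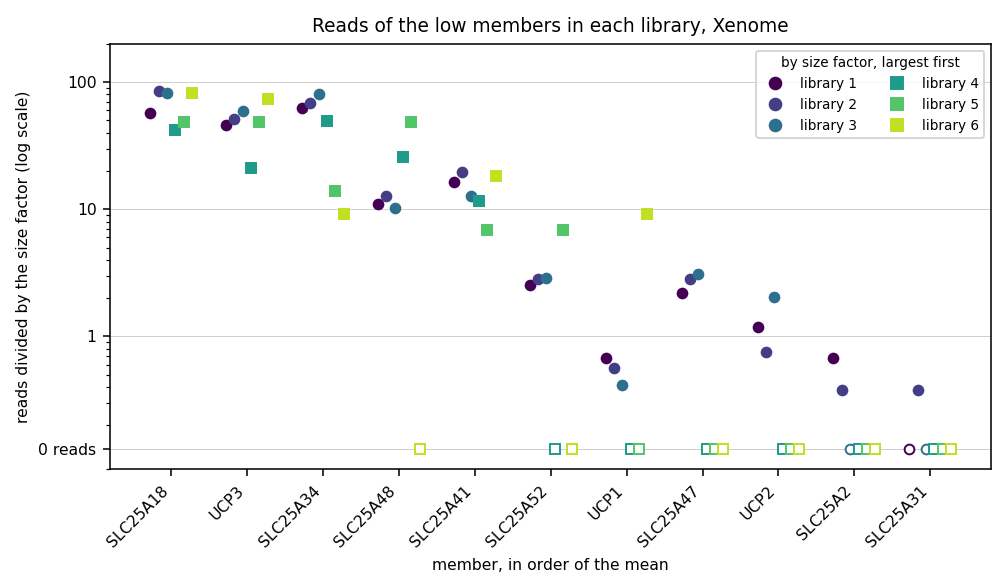
Reads divided by the size factor (vertical axis, log scale) of the 11 members with a Xenome mean under 100, in each of 6 libraries ordered by size factor (circles for libraries 1 to 3, squares for libraries 4 to 6). Open symbols at the bottom mark 0 reads, which SLC25A2, SLC25A31, SLC25A47 and UCP2 show in libraries 4, 5 and 6, while SLC25A18, UCP3, SLC25A34 and SLC25A41 have reads in all 6.

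The pipelines were then compared member by member, as the log2 ratio of a pipeline's mean to the Xenome mean, minus the median of that ratio over all protein-coding genes with a mean of at least 10 in both. The pipelines had been normalised separately, and the median for Kallisto was 0.03. A member was called different past 1 on this scale, which is a factor of 2. XenofilteR and Xenome gave nearly the same means. None of the 49 members with a mean of at least 10 in both was called, against 0.120% of 13321 protein-coding genes, and 47 of 49 lay within 0.1. The exceptions were MPC2 (0.15, means of 15067 and 13569) and MTCH2 (0.14, means of 9940 and 9021). No replicate error goes with these ratios, since each pipeline gave 1 mean from the same reads.

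Between Kallisto and Xenome, 4 of 49 members were called (8.16%), which is near the 9.21% of 13243 protein-coding genes. Kallisto was higher for 3 of them, as for 8.56% of protein-coding genes, and lower for 1, as for 0.649%. The typical member moved little, with a median size of 0.09 against 0.07 over protein-coding genes, and 25 of 49 lay within 0.1. A share so near the background is no result about the carriers as a family, and the 4 members are described one by one.

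**Figure D4:**
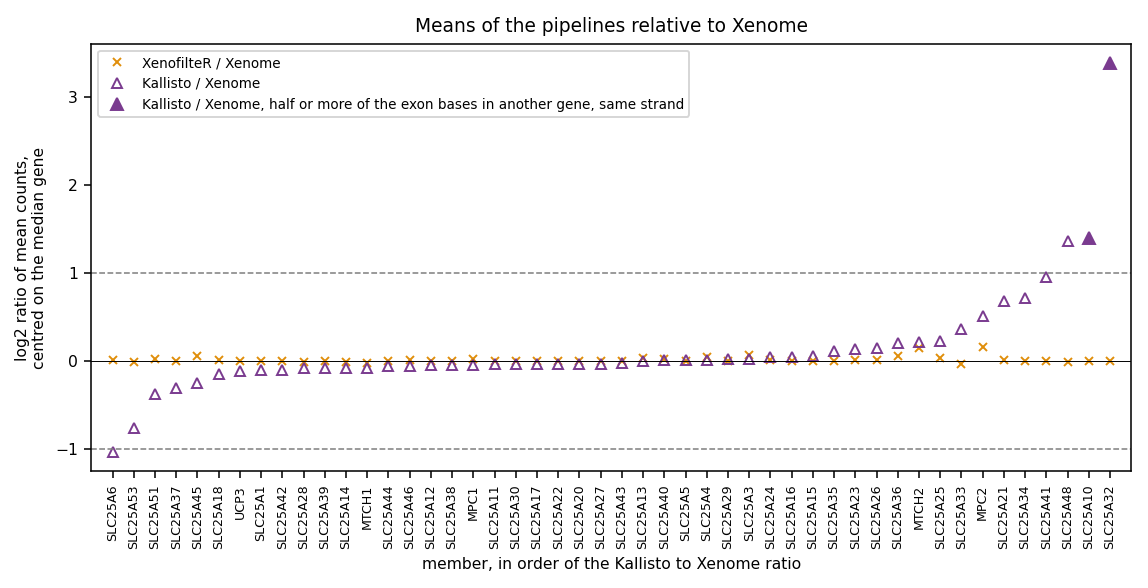
Centred log2 ratio of the Kallisto mean (triangles) and of the XenofilteR mean (crosses) to the Xenome mean (vertical axis) for members with a mean of at least 10 in both Kallisto and Xenome, ordered by the Kallisto ratio. Dashed lines mark a factor of 2. SLC25A32 (3.38), SLC25A10 (1.39) and SLC25A48 (1.37) lie above the upper line and SLC25A6 (-1.04) below the lower one, and the filled triangles are the 2 members with at least 50% of their exon bases in another gene on the same strand.

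SLC25A32, the carrier of folate and flavin nucleotides, had a mean of 175 with both Xenome and XenofilteR and of 1868 with Kallisto, a centred log2 ratio of 3.38. In GENCODE release 44, 99.3% of the exon bases of its canonical transcript also lie in exons of other genes, and 88.1% do so on the same strand. The larger part is shared with a readthrough gene (ENSG00000285982), and the rest with DCAF13 on the opposite strand. ENSG00000285982 itself had a Kallisto mean of 69.3 and no Xenome value.

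SLC25A10 had 2785 with Xenome, 2777 with XenofilteR and 7474 with Kallisto, a centred log2 ratio of 1.39. Of its exon bases, 62.9% lie in a readthrough gene on the same strand (ENSG00000262660), whose own mean was 0.547 with Xenome and 15.4 with Kallisto. The gene lies at chr17:81712236-81721016 (GRCh38), and its canonical transcript has 11 exons. SLC25A10 and SLC25A32 were the only members with at least 50% of their exon bases in another gene on the same strand, and both were called. Over all protein-coding genes above the mean of 10, 379 of 486 with such overlap were called (78.0%), against 828 of 12738 with less (6.5%). The part that the overlap has in the ratio was not tested.

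SLC25A6 was the one member that Kallisto put lower past the limit, at 4683 against 9392 with Xenome and 9422 with XenofilteR (-1.04), close to the limit. The gene lies in the pseudoautosomal region at chrX:1386152-1392113, an identical copy is annotated on Y, and GENCODE release 44 gives that copy a gene ID of its own, which was not analysed here. Of the 31-base sequences of the SLC25A6 transcript, 100% also occur in another annotated human gene, and 0% in mouse transcripts. The pipelines agreed on SLC25A5, its closest paralog (0.01), and on SLC25A4 (0.01).

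SLC25A48, a carrier linked to choline, had means of 18.03 (Xenome), 17.9 (XenofilteR) and 47.5 (Kallisto), a centred log2 ratio of 1.37. The 7 reads of library 5 make up 44.7% of its Xenome mean, which is 11.97 without that library, and the Kallisto mean cannot be split in this way. It has no exon base in another gene, as was also the case for SLC25A6, and shares none of its 31-base sequences with another human gene. SLC25A41 lay just inside the limit at 0.96, with means of 14.3 and 28.4, and it also has no such overlap. SLC25A53 was on the lower side, inside the limit, at -0.77 with means of 168 and 101. SLC25A34 (0.72) and SLC25A21 (0.68) came next above. SLC25A21 has 45.4% of its exon bases in other genes, all on the opposite strand.

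SLC25A51 and SLC25A52 have nearly the same coding sequence, and its part in the pipeline gap of SLC25A52 was not tested. SLC25A52 is a single-exon copy, at 2.52 with Xenome and XenofilteR and 31.4 with Kallisto. SLC25A51 had 924 with Xenome and 728 with Kallisto (-0.38). The Kallisto mean minus the Xenome mean was -196 for SLC25A51 and 28.9 for SLC25A52. Of the exon bases of SLC25A51, 10.4% also lie in another gene on the same strand (ENSG00000255872). That gene had a mean of 1.502 with Xenome and 32.0 with Kallisto. Its part in the pipeline gap of SLC25A51 was not tested. The Xenome mean of SLC25A52 is under 10, so its ratio of 3.61 was not called. Its Xenome reads were 15, 15, 14, 0, 1 and 0 in libraries 1 to 6. The 1 read of library 5 makes up 45.6% of that mean, which is 1.65 without it. The coding sequences are both 891 bases without the stop codon and differ at 21 positions (97.6% identical), which changes 12 of 297 residues. Of the 842 windows of 50 bases, the read length, 301 (35.7%) had no difference. The window of SLC25A51 with the most differences is shown as the place where they are easiest to separate, with capitals on the 5 bases that SLC25A52 has changed, at chr9:37888189-37888238 (minus strand, exon 3).
SLC25A51: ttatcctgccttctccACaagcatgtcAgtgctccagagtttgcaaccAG

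The longest stretch without a difference ran over 169 coding bases (chr9:37887667-37887835), over 3 read lengths. A single read from that stretch cannot be assigned to 1 gene by its sequence. Reads were sequenced in pairs, and a mate from outside the stretch may hold a difference, which was not examined. SLC25A52 had 45 Xenome reads in all, and its level is given as uncertain.

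Sequence shared with mouse was low for most members, which matters because the co-culture libraries held mouse RNA. Mouse transcripts held 0.680% of the 31-base sequences of the median member, and 0.687% of those of the median gene that codes for protein. Above 5% were 4 members, SLC25A5 (10.2%), MTCH1 (8.05%), SLC25A28 (7.75%) and MTCH2 (6.54%). In 17 of the 53 members with a mouse gene of the same symbol, the coding sequences shared a stretch of at least 50 bases, the length of 1 read. The longest was 137 bases in MTCH2. In SLC25A5 it was 62 bases (chrX:119470021-119470082, plus strand, exon 2), shown because single reads from this place fit both species.
SLC25A5: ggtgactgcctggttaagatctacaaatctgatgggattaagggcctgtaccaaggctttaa

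The 3 pipelines gave SLC25A5 means of 20199, 20144 and 20802, and SLC25A28 means of 846, 837 and 815, and none of these 4 members differed past the limit. MTCH2 (9021, 9940 and 10718) and MTCH1 (6358, 6226 and 6160) moved in opposite directions.

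The levels of other transport genes of mitochondria were read beside the carriers. The list of 24 held the outer membrane pores, the calcium uniporter and its regulators, sideroflexins, ABC transporters and carnitine palmitoyltransferases. All 24 had a Xenome mean of at least 10, with a median of 2369 and a median percentile of 71.5 per kilobase, against 70.9 for the carriers. VDAC1, the main outer membrane pore, had a mean of 20031, and CPT1A, which feeds acylcarnitine to SLC25A20, had 13795. Between Kallisto and Xenome, 2 of 24 were called (8.33%), ABCB6 (717 and 4717) and CPT1B (130 and 475). Of their exon bases, 94.1% and 98.1% lie in other genes on the same strand.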

How the data were processed

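RNA was sequenced as stranded 50-base read pairs. Per the study's methods, the authors separated the species in 3 ways. Xenome selected the human reads before alignment (HISAT2, GRCh38) and featureCounts, XenofilteR filtered the alignments before featureCounts, and Kallisto quantified reads on joined human and mouse transcriptomes. The authors deposited, per gene and pipeline, a mean normalised count and the columns of their DESeq2 comparison (log2 fold change, standard error, statistic, p-value and adjusted p-value), which were not used. The planned test of the cultures needs counts per library and was not run.

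Repeated rows were dropped (41734 rows, 41713 genes). Whole reads were solved from means under 100. All distinct means under 10 had 1 solution (10840 for Xenome, 10765 for XenofilteR), and the solver was checked on made-up reads. One read adds 0.0281 to a Xenome mean in library 1 and 1.53 in library 6. Lengths, overlap and 31-base sequences came from GENCODE 44 and M21. The software was biopython 1.88, matplotlib 3.10.9, numba 0.67.0, numpy 2.4.6 and pandas 2.3.3 under python 3.11.15. All members entered the counts, 1 member is not reported here by name, and the means of all 3 pipelines were given for the 10 highest per kilobase, members under a mean of 10 in every pipeline and those past the limit, and the Xenome mean for the paralog sets. Members and lists were chosen with earlier results of these data known. Per-sample columns left unused numbered 0.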

Additional observations from a re-analysis of the deposited data

How the results depend on the processing

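No paired analysis was possible because the means used here pool the libraries, and the libraries solved from them carry no replicate number. For the same reason the alternatives of the comparison of the cultures (another normalisation, another filter, each replicate left out) were not run. With a limit of 1.5 times, 8 of 49 members (16.3%) instead of 4 differed between Kallisto and Xenome, against 14.1% of protein-coding genes. The count was 5 with no filter on low means, where SLC25A52 joined, and 4 with a pseudocount of 1 or with means scaled to equal sums, which shifted all ratios by 0.17. The same 4 members passed in each of the last 2 settings, and their directions were kept. Scaling to equal sums turned the sign of 11 of 49 members, all within the limit. The number of members with a mean of at least 10 was 49 with Xenome and XenofilteR and 50 with Kallisto. The percentile of the median member was between 61.9 (no division by length) and 72.5 (Kallisto). Chosen after the data were seen, leaving out each of the 6 libraries in turn gave Xenome means between 11.97 and 21.6 for SLC25A48, between 1.65 and 3.03 for SLC25A52 and between 0.330 and 2.17 for UCP1. Depth limits the members under a mean of 10, whose reads in 3 of the 6 libraries were mostly 0.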

Other observations

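The table also lists 26 pseudogenes named for 11 of the carriers, 8 of them for SLC25A5. None had a Kallisto value. With Xenome, 24 of 26 were under a mean of 10, and only SLC25A5P3 (22.3) and SLC25A5P2 (13.7) were above it, against 20199 for SLC25A5 itself. XenofilteR gave these 2 lower means (18.9 and 8.76) and gave SLC25A5P6 a higher one (2.46 against 0.125).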
